A study of Mus musculus with 1528 samples.

Results

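Fos, Fosb, Fosl2, Jun, Junb, Jund, Egr1, Ier2, Dusp1 and Atf3 are the AP-1 and immediate early genes described here, 10 of the 55421 genes in the count table. They were chosen by name, and all 10 passed the filter on low counts. They were measured by Smart-seq2, a full-length RNA-seq method, in single BMDMs, macrophages grown from bone marrow, of 2 wild-type mice of the labelled strain C57BL/6 (C57BL/6J in the methods of the study). IL4+IL13 alone or together with TNF was given for 24 h, with 10 ng/ml of each cytokine, before the cells were sorted into 4 plates. All cultures were also grown in CSF1 (M-CSF), the growth factor that drives macrophage development, for 7 days and replated with it at 100 ng/ml. Every cell thus received CSF1, IL4 and IL13, and TNF was the only agent that differed. No unstimulated single cells were among the samples analysed. Plates 2 and 3 held mouse 1 and plates 4 and 5 held mouse 2. On every plate the TNF wells were the lower rows, so treatment and plate position cannot be told apart.

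AP-1 is a dimer of proteins of the Jun, Fos, ATF or Maf families, which bind DNA through a basic leucine zipper. Its genes are held ready for transcription, and signals through MAP kinases switch many of them on within minutes, before any new protein is made. Their transcripts are short-lived and the response is shut off again by products of the same wave, among them the MAP kinase phosphatase Dusp1. In macrophages these genes answer to growth factors, cytokines, adhesion and handling, and AP-1 works beside lineage factors at inflammatory and alternative activation genes.

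Of 1524 assigned wells, 1386 were kept. Mouse 1 gave 357 cells with IL4+IL13 and 347 with TNF, and mouse 2 gave 333 and 349. Kept wells held 200235 to 6122892 fragments assigned to genes, with medians of 477871 with IL4+IL13 and 464673 with TNF. No pair of wells held identical counts. All 10 macrophage markers were found, with summed means of 17175 and 19243 CPM (fragments of a gene per 1000000 fragments of the cell) with IL4+IL13 and 28178 and 27819 with TNF. The higher sums with TNF came from Lyz2, which alone made up 11592 and 12955 CPM with IL4+IL13 and 22984 and 22367 with TNF. The summed markers of B cells, T and NK cells, neutrophils, stromal and erythroid cells stayed under 6 CPM in every mouse and treatment, and those of mast cells and basophils between 2.49 and 12.6. The dendritic cell markers summed to 8.78 and 12.7 CPM with IL4+IL13 and to 25.2 and 199.7 with TNF, of which Ccr7, a chemokine receptor, made up 15.6 and 186.0. No marker gene of these lists was at 0 in every kept cell. The part of Ccr7-expressing cells in the results was not tested. 5 cells exceeded 2000000 fragments and held 2.56% of all fragments.

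Fos (ENSMUSG00000021250, chr12:85473890-85477273), Fosb (ENSMUSG00000003545, chr7:19302696-19310051) and Fosl2 (ENSMUSG00000029135, chr5:32135801-32157842) encode the Fos family partners. Jun (ENSMUSG00000052684, chr4:95049034-95052222), Junb (ENSMUSG00000052837, chr8:84974484-84978718) and Jund (ENSMUSG00000071076, chr8:70698949-70700616) encode the Jun family. Egr1 (ENSMUSG00000038418) and Ier2 (ENSMUSG00000053560, chr8:84661331-84662854) are immediate early genes outside AP-1, Egr1 a zinc finger factor and Ier2 a small nuclear regulator. Dusp1 (ENSMUSG00000024190, chr17:26505590-26562128) dephosphorylates MAP kinases, and Atf3 (ENSMUSG00000026628, chr1:191170296-191218039) is a leucine zipper factor of the stress response that can pair with Jun proteins. Positions are those of the table, on mm10. Counting ignored strand, and fragments in exons shared by 2 genes are dropped by the counter's default. This touches Jund most, since 877 of its 1668 exon bases lie in the antisense gene Gm11175, so its level is a lower bound. For Jun 232 of 3189 exon bases are shared with Junos, and for Junb 173 of 2301 are shared with Prdx2.

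Fos, Fosb, Junb and Dusp1 varied together from cell to cell, as the rank correlations show, and their promoters are shown for that reason. The sequences are from RefSeq on GRCm38.p6, read 5′ to 3′ on the gene's strand from 250 bases before to 50 bases after the annotated start. Capitals mark matches to the motifs searched.
Fos, chr12:85473640-85473939, plus strand: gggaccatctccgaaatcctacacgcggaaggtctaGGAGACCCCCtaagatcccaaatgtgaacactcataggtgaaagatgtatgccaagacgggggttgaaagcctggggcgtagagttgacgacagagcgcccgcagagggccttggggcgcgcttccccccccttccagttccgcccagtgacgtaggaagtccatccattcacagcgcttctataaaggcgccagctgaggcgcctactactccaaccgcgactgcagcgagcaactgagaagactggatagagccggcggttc
Fosb, chr7:19309996-19310295, minus strand: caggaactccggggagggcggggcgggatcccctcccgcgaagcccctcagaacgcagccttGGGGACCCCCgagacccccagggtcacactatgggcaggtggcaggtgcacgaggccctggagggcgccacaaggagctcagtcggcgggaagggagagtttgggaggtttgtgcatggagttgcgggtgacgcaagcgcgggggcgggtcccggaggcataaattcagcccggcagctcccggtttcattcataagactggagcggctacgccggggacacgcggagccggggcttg
Junb, chr8:84978699-84978998, minus strand: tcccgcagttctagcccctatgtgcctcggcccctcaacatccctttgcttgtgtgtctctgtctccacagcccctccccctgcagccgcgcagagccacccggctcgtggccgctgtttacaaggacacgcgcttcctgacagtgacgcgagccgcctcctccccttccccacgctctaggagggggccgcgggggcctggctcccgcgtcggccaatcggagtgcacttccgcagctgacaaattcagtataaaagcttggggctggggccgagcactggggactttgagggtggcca
Dusp1, chr17:26508423-26508722, minus strand: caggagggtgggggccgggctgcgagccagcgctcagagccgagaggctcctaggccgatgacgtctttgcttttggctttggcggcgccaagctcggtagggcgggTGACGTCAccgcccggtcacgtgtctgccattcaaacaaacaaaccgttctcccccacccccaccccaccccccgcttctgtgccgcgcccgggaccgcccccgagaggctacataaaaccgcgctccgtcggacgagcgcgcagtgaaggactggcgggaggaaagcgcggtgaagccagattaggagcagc
On both strands the search covered the AP-1 site TGAGTCA, the cyclic AMP element TGACGTCA, the CArG box bound by serum response factor, the NF-kappaB site and the STAT site. The promoter table held 8 of the 10 members and lacked Egr1 and Ier2, which were not searched. Dusp1 had the full cyclic AMP element, starting 143 bases upstream of the start, which 1.79% of all 32851 promoters hold. An NF-kappaB site was matched in 3 of the 8 members, Fos, Fosb and Fosl2, against 8.46% of all promoters. The AP-1 site, the CArG box and the STAT site were in none of the 8 windows and in 5.20%, 1.63% and 6.95% of all promoters. Sites outside these windows were not searched for. The Jund window, chr8:70697489-70697788, ends before the gene start of the count table at 70698949. The matches are of letters only and name no bound factor.

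Per kilobase of exon, Fos was the most abundant member, with a mean of 194.9 CPM per kb and a range of 160.4 to 231.6 over the 4 combinations of mouse and treatment. Atf3 followed at 156.0 CPM per kb, Junb at 117.6, Dusp1 at 52.8, Ier2 at 28.5, Jund at 25.7, Jun at 12.95, Egr1 at 9.33, Fosb at 5.54 and Fosl2 at 3.79. The ranges of each neighbouring pair in this order overlapped, except those of Jund, 18.5 to 31.8, and Jun, 10.0 to 17.02. The antisense overlap lowers Jund in this order.

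**Figure D1:**
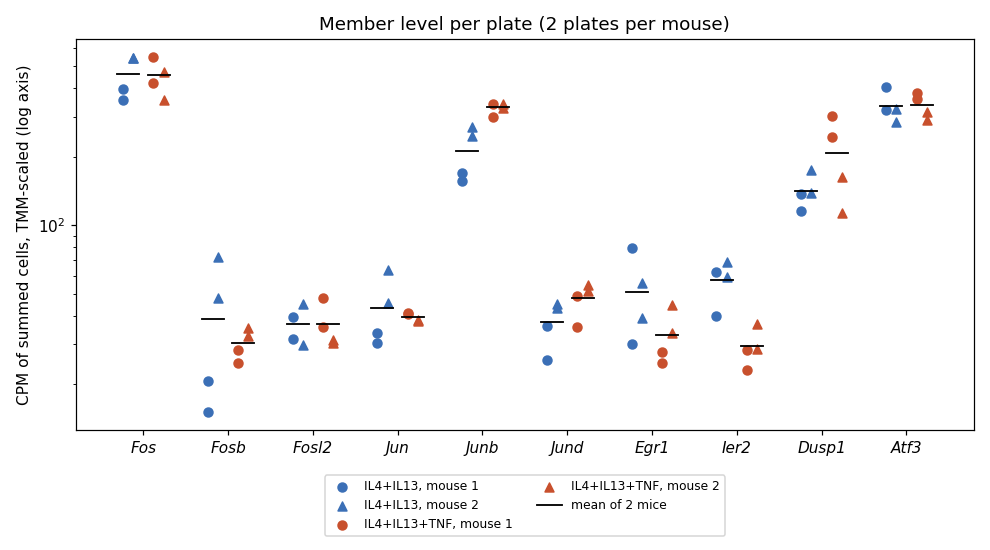
Level of each member on each plate, as CPM of the summed cells scaled by TMM factors, on a log axis. Circles are the 2 plates of mouse 1 and triangles the 2 plates of mouse 2, blue with IL4+IL13 and red with IL4+IL13+TNF, and bars are means of the 2 mice. Blue and red separate completely over plates for Junb and Ier2. The share of all genes that separate in this way was not computed.

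Whether TNF changed these genes in cells already exposed to IL4+IL13 was asked on counts summed per mouse and treatment, 2 sums against 2, with edgeR's quasi-likelihood test and Benjamini-Hochberg adjustment over 17034 genes. 0 of the 10 members passed an adjusted p of 0.05 without a block, and 1, Ier2, had an unadjusted p under 0.05. Over all genes 1 passed, or 0.00587%, the lectin gene Clec4e. With the mouse as a block, which pairs sums from the same animal and plates, 1 of 10 members passed, Ier2, against 3.82% of all genes (1.88% lower and 1.94% higher with TNF). DESeq2 without a block also called Ier2 alone among the members, against 3.51% of all genes. The treatments did not overlap over the 2 mice for Junb, Egr1 and Ier2, 3 of 10 members against 36.4% of all genes. The median log2 fold change of the members was −0.01, and that of all genes tested was 0.00.

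Ier2 was the member with the clearest lower level with TNF. In mouse 1 it stood at 51.1 CPM with IL4+IL13 and at 26.0 with TNF, and in mouse 2 at 64.04 and 32.6. Both TNF sums lay below both IL4+IL13 sums, by nearly the same ratio in each animal, 0.508 and 0.510. The log2 fold change was −0.98 with an SE of 0.23 (edgeR adjusted p = 0.359), and the blocked fit gave −0.98 with an SE of 0.12 (edgeR adjusted p = 0.0221). DESeq2 gave an adjusted p of 0.0174. By plate, Ier2 stood at 62.0, 40.0, 59.3 and 68.9 CPM with IL4+IL13 and at 23.03, 28.2, 36.7 and 28.4 with TNF. For this and the other members, the share of all genes that agree or separate over plates was not computed. The 2 plates of a mouse are also not independent samples. Ier2 was lower with TNF on 4 of 4 plates, and no TNF plate reached the lowest IL4+IL13 plate. It passed in the blocked fits and in DESeq2 and in no other alternative, and over all alternatives the adjusted p ran from 0.0125 to 1.000.

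Junb, the Jun protein that often restrains the transforming activity of Jun, was higher with TNF without passing the test. It stood at 163.4 and 259.2 CPM with IL4+IL13 and at 323.2 and 336.2 with TNF. Both TNF sums exceeded both IL4+IL13 sums, and mouse 1, which started lower, differed by more. The log2 fold change was 0.64 with an SE of 0.26 (edgeR adjusted p = 0.63), and 0.68 with an SE of 0.16 with the block (edgeR adjusted p = 0.0954). On plates the IL4+IL13 values spanned 156.0 to 270.5 CPM and the TNF values 300.3 to 342.8, with no overlap.

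Jund, which is transcribed more constantly than its relatives, was higher with TNF on 4 of 4 plates by 0.25 to 0.47 on the log2 scale. Its sums were 30.9 and 44.3 CPM with IL4+IL13 and 43.0 and 53.0 with TNF. The IL4+IL13 value of mouse 2 lay above the TNF value of mouse 1, so the treatments overlapped. The fitted log2 fold change was 0.35 with an SE of 0.26 (edgeR adjusted p = 0.844). Junos and Gm11175, the antisense partners of Jun and Jund, held 724 and 0 fragments in all kept cells.

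Egr1 was lower with TNF in both mice but not on every plate. Its sums were 54.8 and 47.1 CPM with IL4+IL13 and 26.4 and 39.1 with TNF, a log2 fold change of −0.64 with an SE of 0.26 (edgeR adjusted p = 0.64). The plates read 30.0, 79.3, 39.0 and 55.8 CPM with IL4+IL13 and 24.9, 27.6, 44.5 and 33.6 with TNF, so that the ranges overlapped. The high value on plate 3 came in part from 1 cell. That well held 6122892 fragments and supplied 1788 Egr1 fragments, 17.95% of the sum of mouse 1 with IL4+IL13. Without the 5 cells over 2000000 fragments, this sum was 46.5 CPM and the log2 fold change −0.49 (edgeR adjusted p = 0.727).

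**Figure D2:**
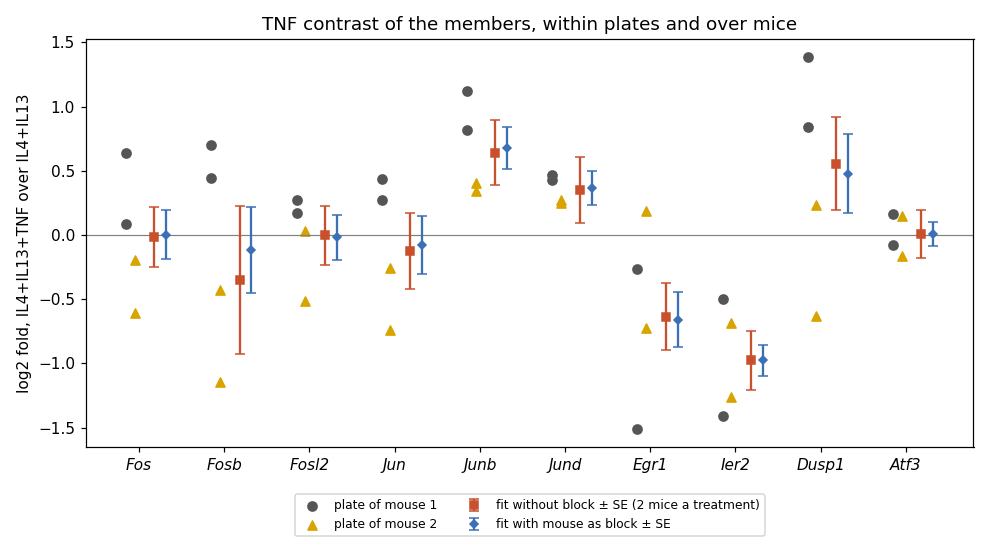
Log2 fold of IL4+IL13+TNF over IL4+IL13 for each member. Grey circles are plates of mouse 1, yellow triangles plates of mouse 2, and the squares and diamonds are fits over 2 mice a treatment without and with the mouse as a block, each with its SE. Ier2 is below 0 on all 4 plates, Junb and Jund above 0 on all 4, and Fos, Fosb and Jun are above 0 on both plates of mouse 1 and below 0 on both plates of mouse 2.

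For Fos, Fosb and Jun, 3 of the 10 members, the mice went in opposite directions on all of their plates. In the sums per mouse, 6 of the 10 members went opposite ways, against 5666 of 17034 tested genes. Fosl2, Dusp1 and Atf3 were among the 6, with Atf3 close to 0 in both mice. Fos stood at 377.3 and 544.7 CPM with IL4+IL13 and at 495.5 and 416.5 with TNF. TNF thus accompanied a higher Fos level in mouse 1, by 1.31-fold, and a lower one in mouse 2, at 0.765-fold. The 2-mouse estimate was close to 0, at −0.02 with an SE of 0.23 (edgeR adjusted p = 0.996).
Fosb, a Fos relative known for lasting accumulation in stimulated cells, had 17.8 and 59.7 CPM with IL4+IL13 and 26.7 and 34.1 with TNF. The gap between the mice was 3.35-fold with IL4+IL13 and 1.28-fold with TNF. Jun had 31.9 and 54.3 CPM with IL4+IL13 and 40.9 and 38.2 with TNF, and so differed between mice mainly without TNF. Its log2 fold change was −0.12 with an SE of 0.30 (edgeR adjusted p = 0.973). With 1 sum per mouse and treatment, the difference between the mice has no test. Each mouse was on its own plates, so mouse and plates cannot be told apart in these gaps.

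Dusp1 rested on mouse 1. It stood at 126.6 and 156.6 CPM with IL4+IL13 and at 277.5 and 138.7 with TNF, 2.19-fold higher in mouse 1 and 0.886-fold in mouse 2. The estimate of 0.56 had an SE of 0.36 (edgeR adjusted p = 0.808), and −0.03 without the TNF sum of mouse 1. Within mouse 2, plate 4 was higher with TNF by 0.23 on the log2 scale and plate 5 differed by −0.63.
Atf3 was close to equal in both treatments, with 363.8 and 306.3 CPM with IL4+IL13 and 370.9 and 303.3 with TNF. Its log2 fold change of 0.01 had an SE of 0.19, and plates ranged from −0.16 to 0.16. Fosl2, the Fos family member known as Fra-2, stood at 35.6 and 37.8 CPM with IL4+IL13 and 42.4 and 30.9 with TNF, with a log2 fold change of 0.00 and an SE of 0.23.

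Levels of a sum can come from more positive cells or from more transcript in each. For the share of cells, every well was thinned to 339000 fragments, which left 1250 cells, and a cell counted as positive with 1 fragment. Of the kept wells, 49 with IL4+IL13 and 87 with TNF were too shallow. Intervals are exact 95% binomial over the cells of 1 mouse and treatment. They cover counting error only and leave out the spread between mice, plates and cultures. The protocol also has no molecular identifiers. Plate libraries have no gate or cell type that lacks these genes, so low shares have no measured background.

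Ier2 was found in 66.0% (95% interval 60.6 to 71.0) and 62.5% (56.8 to 67.9) of cells with IL4+IL13, and in 51.2% (45.4 to 56.9) and 48.0% (42.3 to 53.8) with TNF. In each mouse about the same number of points was lost, a mean difference of −14.6 ± 0.27 percentage points (SD, n = 2 mice). Unthinned, its shares averaged 68.4% and 53.6%. The level in positive cells was lower with TNF as well. Unthinned cells with Ier2 had medians of 46.1 and 53.8 CPM with IL4+IL13 and of 25.9 and 29.0 with TNF. Junb was found in 90.7% and 95.8% of cells with IL4+IL13 and in 97.0% and 98.4% with TNF. More of its difference lay in the level per cell, with medians of 113.8 and 213.3 CPM with IL4+IL13 and 254.4 and 262.3 with TNF. Jund was found in 85.5% and 90.6% of cells with IL4+IL13 and in 93.4% and 95.8% with TNF, a difference of 6.50 ± 1.92 percentage points.
Egr1 was positive in 40.7% and 48.2% of cells with IL4+IL13 and in 32.7% and 42.5% with TNF, a difference of −6.86 ± 1.59 percentage points. Fosb again showed the mouse gap, with 25.9% and 60.2% of cells with IL4+IL13 and 41.9% and 47.7% with TNF. Dusp1 was found in 66.6% and 81.9% with IL4+IL13 and in 86.8% and 82.7% with TNF. The median cell held 6.36 and 13.8 CPM of Dusp1 with IL4+IL13 against 127.8 and 27.8 with TNF. By plate it was higher with TNF on 3 of 4 plates, and on plate 5 of mouse 2 it was lower, at 16.2 CPM against 24.5. Fos was found in 90.1% to 97.7% of cells, Atf3 in 95.4% to 97.7%, Jun in 68.0% to 76.6% and Fosl2 in 42.2% to 53.8%. An exact permutation test of 2 mice against 2 cannot give a p below 0.333, so none is quoted for shares.

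**Figure D3:**
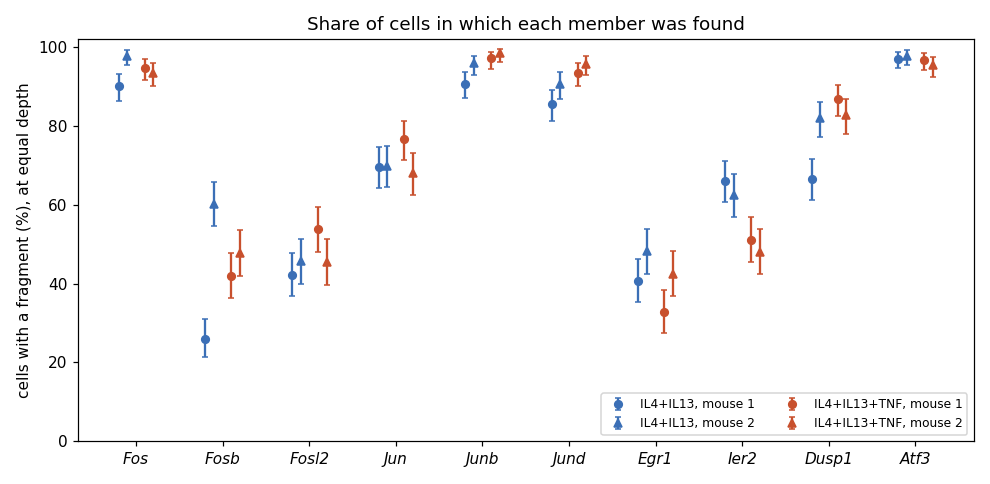
Percent of cells with at least 1 fragment of each member after thinning every cell to 339000 fragments. Circles are mouse 1, triangles mouse 2, blue IL4+IL13, red IL4+IL13+TNF, and bars are exact 95% binomial intervals. For Ier2 both red values lie below both blue ones, while Fosb spans from 25.9% to 60.2% between the mice without TNF.

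Transcripts of several members sat in few cells. The top 5% of cells held a median of 30.1% of a member's summed CPM, with an SD of 4.06 between the mice. Among all tested genes found in at least 25% of kept cells, this share had a median of 29.2% and quartiles of 20.3% and 40.8%, so as a group the members were not set apart. Egr1 was the most concentrated member at 53.3% on average, with Fosb at 45.3%, Fosl2 at 43.0% and Ier2 at 38.5%. Dusp1 at 31.0%, Jun at 29.2%, Jund at 21.96%, Fos at 21.5% and Atf3 at 20.6% were more even, and Junb was the most even at 18.5%. Members found in fewer cells were more concentrated on this measure, as the plot of both shows.
For Egr1, 93 cells carried over 5 times the mean CPM of their mouse and treatment, called bursts here, and they held 54.6% to 65.3% of its CPM. The highest cell had 1265 CPM of Egr1 while the median cell had 0 to 1.601. Fosl2 had 83 such cells, Fosb 82, Ier2 57, Dusp1 42 and Jun 33, against 15 for Jund, 11 for Fos, 8 for Atf3 and 5 for Junb. With TNF, the share of Ier2 held by its top 5% of cells was 41.9% and 46.7%, against 34.3% and 31.2% without. For Dusp1 it was lower with TNF, at 22.7% and 30.8% against 36.3% and 34.1%.

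**Figure D4:**
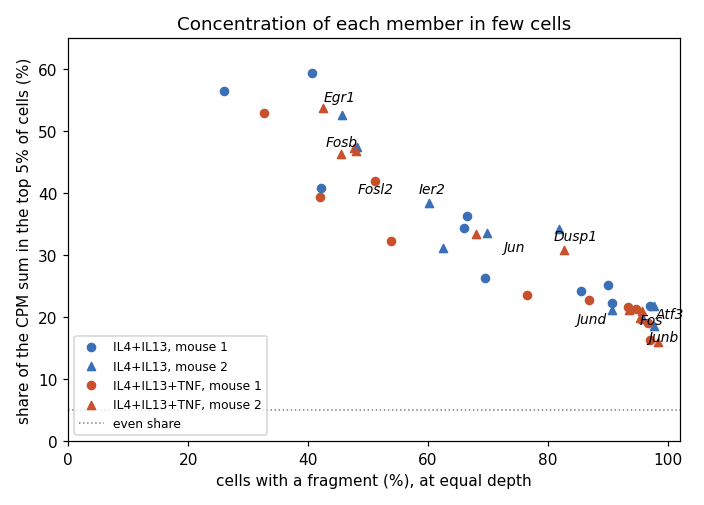
Share of each member's summed CPM held by the top 5% of cells against the percent of cells in which it was found, 1 point per mouse and treatment. Circles are mouse 1, triangles mouse 2, and the dotted line is the share if all cells were equal. Members in most cells, such as Junb at 18.5% on average, lie low, and Egr1 at 53.3% lies high.

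Of 1386 cells, 328 were in a burst of at least 1 member, 69 of at least 2, 21 of at least 3 and 3 of 5. Egr1 and Ier2 shared the most burst cells, 17, which were 18.3% of those of Egr1 and 29.8% of those of Ier2. Fosb and Egr1 shared 14, or 17.1% and 15.1% of each, and Egr1 and Dusp1 shared 13, or 13.98% and 31.0%. Fos had only 11 burst cells and shared 6 of them, or 54.5%, with Dusp1 and 5, or 45.5%, with Egr1. Members with more burst cells can share more of them, and the overlap to expect from these numbers was not computed. In 1 cell of mouse 1 with IL4+IL13 on plate 3, Fos stood at 2227 CPM, Fosb at 540.6, Egr1 at 661.2, Ier2 at 459.6 and Dusp1 at 734.7, with 530864 fragments and 7723 genes.

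Co-expression was measured as Spearman's rho over cells at equal depth, in each of 8 sets of a plate and a treatment with 128 to 175 cells. The median over the 45 pairs of members was 0.07, but the pairs fell apart by gene. Fos, Fosb, Junb, Egr1, Ier2 and Dusp1 formed the 15 highest pairs, with mean rho from 0.18 to 0.51 and positive values in 8 of 8 sets for each of the 15. This grouping was read from the values and has no test. The strongest pair was Fos with Dusp1 at 0.51 (range over sets 0.40 to 0.62), followed by Fos with Fosb at 0.49, Fos with Junb at 0.46 and Fosb with Dusp1 at 0.40.
Jun, Jund, Fosl2 and Atf3 stood outside. The other 30 pairs had mean rho between −0.14 and 0.12, and 3 of them were positive in all 8 sets. Jun, the usual Fos partner in AP-1, had a mean rho of 0.08 with Fos and −0.01 with Junb. Atf3 had −0.06 with Fos and −0.14 with Ier2, negative in 8 of 8 sets, and its highest pair was Jund at 0.12. Values this weak, in sparse counts, are given as a description only.
Pair values with and without TNF lay close for Fos with Dusp1, at 0.51 and 0.52. Junb with Dusp1 read 0.45 with TNF and 0.25 without, and Fos with Atf3 −0.15 and 0.03, over 4 sets each and without a test. Points within a set share a plate and a depth. The mean rank of the members had a mean rho of −0.01 with the fragments per cell before thinning, −0.04 with genes detected, 0.06 with the mitochondrial share, 0.04 with the spike-in share and −0.02 with the order of wells on the plate.

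**Figure D5:**
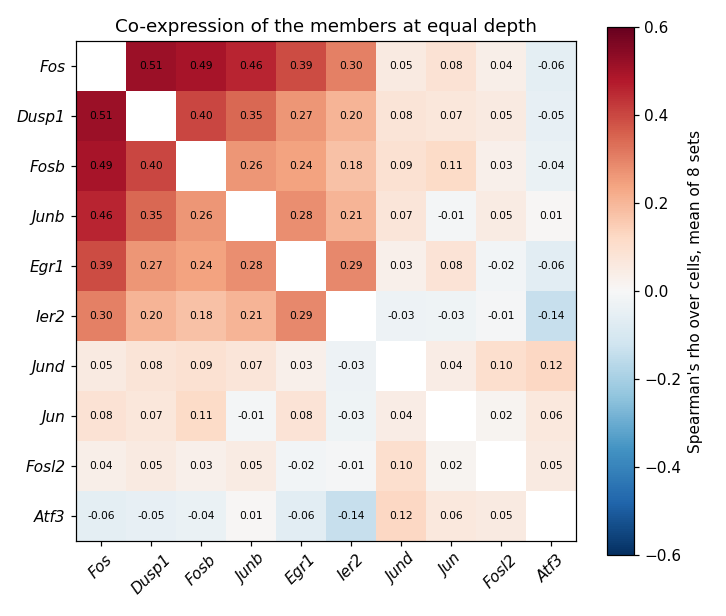
Spearman's rho between each pair of members over cells at equal depth, as the mean of 8 sets of a plate and a treatment. Red is positive and blue negative. The block from Fos to Ier2 in the upper left holds the 15 highest pairs, and the rows of Jund, Jun, Fosl2 and Atf3 lie near 0.

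The 10 genes most like the members were ranked by the mean rho of each of 10639 genes with the members' mean rank, over the same 8 sets. Zfp36, which binds AU-rich elements and speeds the decay of short-lived transcripts, came first at 0.52 (0.42 to 0.59 over sets). Rgs1, a regulator of G protein signalling, had 0.43 and the factor Klf2 0.31. Ahnak had 0.22, Klf4 0.22, Gm26532 0.20, Egr2 0.20, the kinase Pim1 0.20, Gpx1 0.19 and Btg1 0.19. All 10 were positive in 8 of 8 sets. The median of all ranked genes was −0.01 and their 95th percentile 0.06. Of the other immediate early genes, 15 of the 20 found in enough cells lay above that percentile, with a list median of 0.12. Of the integrated stress response, 1 of 11 did, with a median of −0.05, and of the heat shock genes 2 of 8, with a median of −0.03. Inflammatory cytokines and chemokines had 3 of 6 above it and macrophage markers 2 of 10, each with a median of 0.05. The other lists had 0 to 2 genes above it and medians from −0.05 to 0.03. Atf3 by itself went with Egr2, with a mean rho of 0.28, and against the factor Maf, at −0.27, in 8 of 8 sets each. Jund went with Cebpb, a leucine zipper factor of myeloid cells, at 0.25. These pairs were picked from many pairs of a member and a listed gene, without a test. Larger values were seen for Zfp36 with Fos, at 0.51, and with Dusp1, at 0.36.

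Genes around the members in the pathway were read from fixed lists with the same fits. Without a block 0 genes of any list passed, and the values given here are from the blocked fit. That fit called 3.82% of all genes, 1.88% lower and 1.94% higher with TNF, and DESeq2 called 3.51%. In lists of 23 or 24 tested genes, 1 called gene is near that share. Of 23 tested AP-1 and leucine zipper partners, 0 rose and 1 fell, Cebpa by 0.86 on the log2 scale (SE 0.12, edgeR adjusted p = 0.0292). Of 27 other immediate early genes, Gadd45b, a growth arrest gene, rose by 1.19 (edgeR adjusted p = 0.0197) and Sgk1, a kinase of ion transport and survival signalling, by 1.53 (edgeR adjusted p = 0.0127). In the same list Btg2 fell by 0.82 and the decay factor Zfp36l2 fell by 0.86 (edgeR adjusted p = 0.0401 and 0.03). DESeq2 called 3 genes of this list, all higher with TNF, Gadd45b, Sgk1 and Nr4a3, a nuclear receptor named here after its values were seen. For Nr4a3 this rested on mouse 2, with 14.4 CPM with TNF against 0.682 in mouse 1.
Of 9 tested dual-specificity phosphatases, Dusp5, which acts on ERK in the nucleus, rose by 2.25 (edgeR adjusted p = 0.0269) from a mean of 1.04 CPM. Dusp5 was found in 4.20% of cells with IL4+IL13 and 6.18% with TNF, so it met the 5% limit only through the TNF cells. Its treatments overlapped over the mice, with 0.264 and 1.82 CPM with IL4+IL13 and 1.38 and 7.92 with TNF. Of 24 MAP kinase cascade and ternary complex genes, Map3k1 fell by 0.64 (edgeR adjusted p = 0.0474). Among 14 genes of the integrated stress response, which controls Atf3 in stressed cells, 2 rose. They were the cystine transporter Slc7a11, by 1.69, and the pseudokinase Trib3, by 1.52. Of 9 heat shock genes 1 rose, Hspd1, by 0.74.

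Of 12 inflammatory cytokines and chemokines, 3 rose with the block and 3 fell, where 3.82% of all genes were called either way. Il6 rose by 5.13, Ccl5 by 4.46 and Cxcl2 by 3.78 on the log2 scale, and Ccl3 fell by 0.99, Ccl4 fell by 1.10 and Il10 fell by 2.17. Il6 was found in 3.33% of cells with IL4+IL13 and 6.47% with TNF, and Il10 in 11.9% and 4.31%. Each of these 2 genes thus met the 5% limit only through the treatment where it was higher. Of 10 cycling genes 6 fell with the block, Mki67, Birc5, Ccna2, Ccnb1, Top2a and Cdk1, with log2 fold changes of −1.29 to −0.67. The other 4 did not pass, and DESeq2 called 1 of the 10, Mki67. Among those 4, Rrm2 had log2 fold changes of −0.54 in mouse 1 and 0.22 in mouse 2. Of the 10 macrophage markers, Lyz2 rose by 1.00, and Fcgr1 fell by 1.73 and Mertk by 1.19. Of 3 tested dendritic cell markers Ccr7 rose, and of 8 reference genes B2m rose by 0.45. The tested genes of the other marker lists, 1 of T and NK cells, 2 of neutrophils and 1 of mast cells and basophils, had none called, and no B cell, stromal or erythroid marker passed the filter on low counts.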

How the data were processed

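The authors deposited raw counts, as 1 table of genes by wells that counts fragments and is not normalized, with a column of gene lengths in bases. They aligned to mm10 with gsnap and counted with featureCounts 1.6.3 on Ensembl 98, on both strands. The labels also name bcl2fastq 2.19.1 and Seurat 3. There are no molecular identifiers, so PCR copies count. 8 columns without a sample label were not used. 4 samples with a treatment but no mouse number were left out, of which 3 have a column. 92 spike-ins were left out of totals.

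Wells beyond 3 median absolute deviations in fragments, genes, mitochondrial or spike-in share were left out per plate. No doublet caller was run on these singly sorted wells. The sums of kept wells by mouse and treatment were fitted with edgeR 4.0.16 (TMM, quasi-likelihood, R 4.3.3). Genes present in under 5% of cells in both treatments, or low in counts by edgeR's filterByExpr, were left out. A gene that met the 5% limit in only 1 treatment was thus tested. CPM of sums is TMM-scaled. Alternatives used DESeq2 1.42.0 and limma 3.58.1 on log2(CPM + 1). Same-numbered samples come from 1 mouse and the same plates, and their deviations correlated with r = 0.583 over 17034 genes. Samples were paired by mouse number, but mouse and plates cannot be told apart as the source of this correlation. The edgeR fits were also run on simulated counts. The study describes 2 independent experiments, and nothing says which plates belong to each or how many cultures a mouse gave. Without a block, p-values measure the spread between these 2 mice. With the block, they measure how the treatment difference varied between the 2 mice. In both fits the estimate of spread also drew on all genes.

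Members and lists were chosen with earlier results of these data known. Named are all members, each list gene past the threshold in either edgeR fit, and the 10 genes most like the members. A few more, such as Maf, Cebpb and Nr4a3, are named outside this rule. Burst cells exceed 5 times the mean CPM of their mouse and treatment. Cell correlations used cells thinned to 339000 fragments with 1 random seed.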

Additional observations from a re-analysis of the deposited data

Results flagged for a closer look

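3 wells whose labels give IL4+IL13 but no mouse number, on plates 3, 4 and 5, entered no comparison but held members above the limit that a count of 0 allows. They held 279461, 354874 and 87198 fragments and 10802, 11121 and 8314 genes. Medians of the kept cells were 7708.5 genes at 477871 fragments with IL4+IL13 and 8025.5 genes at 464673 fragments with TNF. Fos was at least 160.6 CPM in all 3 wells, Junb at least 336.4, Jund at least 132.4, Egr1 at least 45.9, Dusp1 at least 146.5 and Atf3 at least 103.2. Jund, at 132.4, 155.0 and 160.6 CPM, lay above the plate sums of both treatments, which ended at 54.3 CPM, while single kept cells reached 415.2 CPM. The 3 values rest on 37, 55 and 14 fragments. What the wells hold is not given in the sources used here.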

How the results depend on the processing

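Over 14 alternatives per member, Ier2 and Egr1 kept a negative log2 fold change and Junb and Jund a positive one, but leaving out 1 sum moved Jund to 0.109 to 0.637, Junb to 0.342 to 1.01, Egr1 to −0.947 to −0.38 and Ier2 to −1.15 to −0.801. Ier2 passed in 3 of 14, both blocked fits and DESeq2, and no other member passed in any. The block moved the number of genes called from 1 to 651, DESeq2 to 598, and limma on mean CPM without the top 1% of cells to 3. An alternative chosen after seeing the data left out the cells over 2000000 fragments, and with the block gave 1032. Leaving out single sums gave 4 to 30 genes and 0 members. Members called were 1 with the replicate block, 1 with DESeq2 and 1 with the block without the deepest cells. Signs turned for Fos (0.00298 with the block, 0.0154 without a cell filter), Fosl2 (0.000759 without the low-count filter, 0.0311 without the top 1% of cells, 0.0419 with the fixed cell filter, 0.0402 with none, 0.0607 and 0.0497 without the deepest cells, the second with the block), Jun (0.318 without a cell filter, against −0.124 with it) and Atf3 (−0.084 with library size only, −0.0521 and −0.018 with mean CPM, the second without the top 1% of cells). The cause was not tested. With single sums left out, log2 fold changes ran from −0.26 to 0.28 for Fos, −0.98 to 0.77 for Fosb, −0.25 to 0.21 for Fosl2, −0.46 to 0.31 for Jun, −0.0295 to 0.971 for Dusp1 and −0.14 to 0.15 for Atf3. Where a treatment then has 1 sum, it is assumed to vary like the other. The median rank correlation between members was 0.0815 without mouse 1, 0.0784 without mouse 2 and 0.0709 to 0.0805 otherwise. The share in the top 1% of cells was 10.1%, and the top 5% held 27.2% to 33.0% with a mouse left out. The median of all genes moved by less than 0.1 under every scaling. At the common depth, 136 kept cells were too shallow to enter.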
